A study of Rattus norvegicus with 10 samples.

Results

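A set of 10 genes of striated muscle were followed in RNA of rat mammary gland: Acta1, Ckm, Tnnc2, Tnni2, Tnnt3, Mylpf, Atp2a1, Rrad, Jph2 and Dmpk. They were chosen by name, with earlier results of these data known, and every probe set whose platform symbol was 1 of these was taken. The 10 genes had 10 probe sets, 1 each, of the 15866 probe sets and 10411 named genes measured. Mylpf was found under its current symbol, Myl11. Of the 10 genes, 7 were bright enough to enter the test across the array, and Tnnc2, Tnnt3 and Mylpf fell below the filter on dim probe sets. The filter used the mean over all 10 arrays, so 1 bright array could lift a gene toward it, as described below for Acta1 and Tnni2. The probe sets were 1369928_at for Acta1, 1367626_at for Ckm, 1372195_at for Tnnc2, 1367964_at for Tnni2, 1371247_at for Tnnt3 and 1387787_at for Mylpf. Those of the other 4 genes were 1368108_at for Atp2a1, 1367862_at for Rrad, 1372159_at for Jph2 and 1373915_at for Dmpk.

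The study asked whether a diet with SPI or with genistein changes gene expression in the mammary gland. Female Sprague-Dawley rats ate 1 of 3 purified diets and were sampled at postnatal day 50, and the titles name 3 arrays CAS, 4 SPI and 3 GEN. The labels do not spell out CAS or SPI, and GEN is taken as the genistein diet of the series title. Each array held RNA of the #4 gland of 2 animals, mixed in equal amounts. The source label speaks of epithelial cells and the labelling protocol of the gland, while colon appears in the design text. Several targets were made from each RNA pool, and the labels do not say whether arrays of a diet share a pool, so p-values measure the spread between these arrays, which may be technical. Arrays are called below by diet and title number, for example CAS 1.

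Skeletal muscle fibres contract when calcium leaves the sarcoplasmic reticulum and binds troponin, which frees actin for the myosin motor. Fast and slow fibres build this machine from different members of the same gene families. The mammary gland itself holds smooth-muscle-like myoepithelial cells and vessel walls, which use other actins and myosins. Skeletal muscle lies beneath and beside the rat's glands, and the skin above them carries a thin sheet of it. The 10 genes fall into 7 genes of skeletal fibres, Acta1, Ckm, Tnnc2, Tnni2, Tnnt3, Mylpf and Atp2a1, and 3 that other cell types also use, Rrad, Jph2 and Dmpk. The 7 are called fast fibre genes below as a short name. Acta1 and Ckm are used by slow fibres too, so they do not mark a fibre type.

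The promoters of the fast fibre genes are shown because these genes were high together on 1 array. RefSeq's promoter table (GRCr8) held 8 of the 10 genes, all but Tnnt3 and Rrad, and the 250 bases before the start of 4 of them follow, 5′ to 3′ on the gene's strand. Capitals mark matches on either strand to CANNTG (the E-box, which myogenic factors bind), TATAAA, the CArG box that serum response factor binds, and the MEF2 site. CAGCTG is 1 form of CANNTG, so each of its matches also counts as an E-box. The windows are chr19:68784195-68784444, minus strand, for Acta1, and chr1:88189211-88189460, plus strand, for Ckm. Those of Tnni2 and Mylpf are chr1:207024240-207024489 and chr1:191260039-191260288, both on the plus strand.
Acta1: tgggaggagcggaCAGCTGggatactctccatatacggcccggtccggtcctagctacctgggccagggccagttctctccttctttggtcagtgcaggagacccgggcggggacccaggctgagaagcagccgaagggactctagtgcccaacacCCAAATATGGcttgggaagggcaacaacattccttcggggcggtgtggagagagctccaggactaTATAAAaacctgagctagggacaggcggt
Ckm: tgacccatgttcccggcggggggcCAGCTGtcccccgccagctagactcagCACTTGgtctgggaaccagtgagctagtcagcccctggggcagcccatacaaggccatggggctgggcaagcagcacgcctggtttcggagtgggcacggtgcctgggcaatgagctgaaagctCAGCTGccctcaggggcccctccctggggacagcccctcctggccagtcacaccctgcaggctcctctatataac
Tnni2: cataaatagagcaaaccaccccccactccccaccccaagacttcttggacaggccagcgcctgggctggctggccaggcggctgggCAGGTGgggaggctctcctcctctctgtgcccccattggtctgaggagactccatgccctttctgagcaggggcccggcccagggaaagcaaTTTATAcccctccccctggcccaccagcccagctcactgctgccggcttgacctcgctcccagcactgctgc
Mylpf: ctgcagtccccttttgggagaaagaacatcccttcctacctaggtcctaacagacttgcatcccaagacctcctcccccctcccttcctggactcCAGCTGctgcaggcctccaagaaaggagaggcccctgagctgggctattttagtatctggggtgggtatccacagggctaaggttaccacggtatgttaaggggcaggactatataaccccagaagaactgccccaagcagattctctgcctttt

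An E-box stood in all 6 fast fibre promoters that could be read, and it also stood in 65.5% of all 33469 promoters of this length. CAGCTG stood in 4 of the 6, those of Acta1, Ckm, Mylpf and Atp2a1, and in 12% of all promoters. TATAAA stood in 2 of the 6, those of Acta1 and Tnni2, and in 12.9% of all promoters. The CArG box stood in 1, that of Acta1, and in 1.5% of all promoters. None of the 6 windows held the MEF2 site, which stood in 2.96% of all promoters. Of the promoters of Jph2 and Dmpk, 1 held an E-box, that of Dmpk, and neither held the other motifs. These are matches of letters and were not tested as sites.

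The 7 fast fibre genes were all highest on the same array, CAS 1. The values are MAS5 signals, a linear intensity scaled per array, and a signal near 162 was the mean of the dimmest probe set tested. CAS 1 lay 5.22 to 55.8 times over the median of the other 9 arrays for Acta1, Ckm, Tnnc2, Tnni2, Tnnt3 and Mylpf, and 1.71 times over it for Atp2a1. Rrad, Jph2 and Dmpk were not raised there. A single array has no replicate of its own, so these distances are descriptions with no test. In these bulk pools, fewer cells of a type and less RNA per cell cannot be told apart.

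Acta1 encodes the actin of skeletal muscle thin filaments. Its signal was 1731 on CAS 1, 139 on CAS 2 and 259 on CAS 3. It was 101, 32.3, 100 and 204 on SPI 2, 3, 4 and 5, and 246, 157 and 308 on GEN 1, 3 and 5. CAS 1 was 5.63 times the next highest array, GEN 5, and the other arrays of the 3 diets overlapped.

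The 3 fast troponin subunits were also highest on CAS 1. Tnnc2 encodes the subunit that binds calcium, and its signal was 958 on CAS 1, 108 on CAS 2 and 124 on CAS 3. The SPI arrays 2 to 5 read 74.4, 101, 92.1 and 139 for Tnnc2, and the GEN arrays 1, 3 and 5 read 103, 104 and 124. On CAS 1 Tnnc2 was 6.91 times the next highest array, and the other 9 arrays differed little, with an SD of 0.27 on the log2 scale. All 9 were below 162, and against that level CAS 1 was 5.92-fold higher for Tnnc2. Tnni2 encodes the inhibitory subunit and read 777, 149 and 105 on CAS 1, 2 and 3. It read 144, 101, 176 and 109 on SPI 2, 3, 4 and 5, and 167, 198 and 216 on GEN 1, 3 and 5. CAS 1 was 3.60 times the next highest array for Tnni2. Tnnt3 encodes the subunit that anchors the complex to tropomyosin. Its signal was 442, 19.3 and 114 on the CAS arrays, 43.9, 15.7, 79.8 and 50.2 on the SPI arrays, and 18.1, 81.8 and 74.5 on the GEN arrays. Every array but CAS 1 was below 162 for Tnnt3, so its excess of 3.14 log2 over the other arrays' median rests on a dim baseline, and against a baseline of 162 it was 2.73-fold.

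Mylpf encodes the fast regulatory myosin light chain and had the widest gap. It read 831 on CAS 1, 11.4 on CAS 2 and 14.8 on CAS 3. The SPI arrays read 3.5, 10.2, 14.9 and 25.2, and the GEN arrays 19.4, 16.2 and 19.4. All arrays but CAS 1 were far below 162, and measured against that level CAS 1 was 5.13-fold higher rather than 55.8-fold.

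Ckm encodes the muscle creatine kinase, which regenerates ATP beside the filaments. Its signal was 1362, 217 and 225 on CAS 1, 2 and 3. The SPI arrays read 155, 238, 219 and 299 and the GEN arrays 280, 365 and 197. CAS 1 was 3.73 times the next highest array, and the other 9 arrays had an SD of 0.36 log2. Atp2a1 encodes the calcium pump of fast fibres and stood out least on CAS 1. It read 379, 223 and 221 on the CAS arrays, 159, 168, 241 and 241 on the SPI arrays, and 234, 164 and 169 on the GEN arrays. CAS 1 was still the highest array for Atp2a1, at 1.57 times the next.

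Rrad, Jph2 and Dmpk had another order of arrays. Rrad is a small GTPase that restrains voltage-gated calcium channels. Its signal was 200, 319 and 240 on the CAS arrays, 595, 588, 380 and 464 on the SPI arrays, and 318, 407 and 314 on the GEN arrays. CAS 1 was the lowest of the 10 arrays for Rrad. Jph2 encodes junctophilin, which holds the surface membrane to the sarcoplasmic reticulum in heart and skeletal muscle and is also found in smooth muscle. It read 584, 566 and 624 on the CAS arrays, 796, 1064, 1021 and 785 on the SPI arrays, and 740, 542 and 517 on the GEN arrays. Dmpk encodes the kinase whose gene carries the repeat expansion of myotonic dystrophy. It read 871, 1154 and 802 on the CAS arrays, 1504, 1833, 1248 and 1456 on the SPI arrays, and 1279, 1271 and 1074 on the GEN arrays. For all 3 genes the SPI arrays lay above the CAS arrays with no overlap, and CAS 1 lay among or below its own group.

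**Figure D1:**
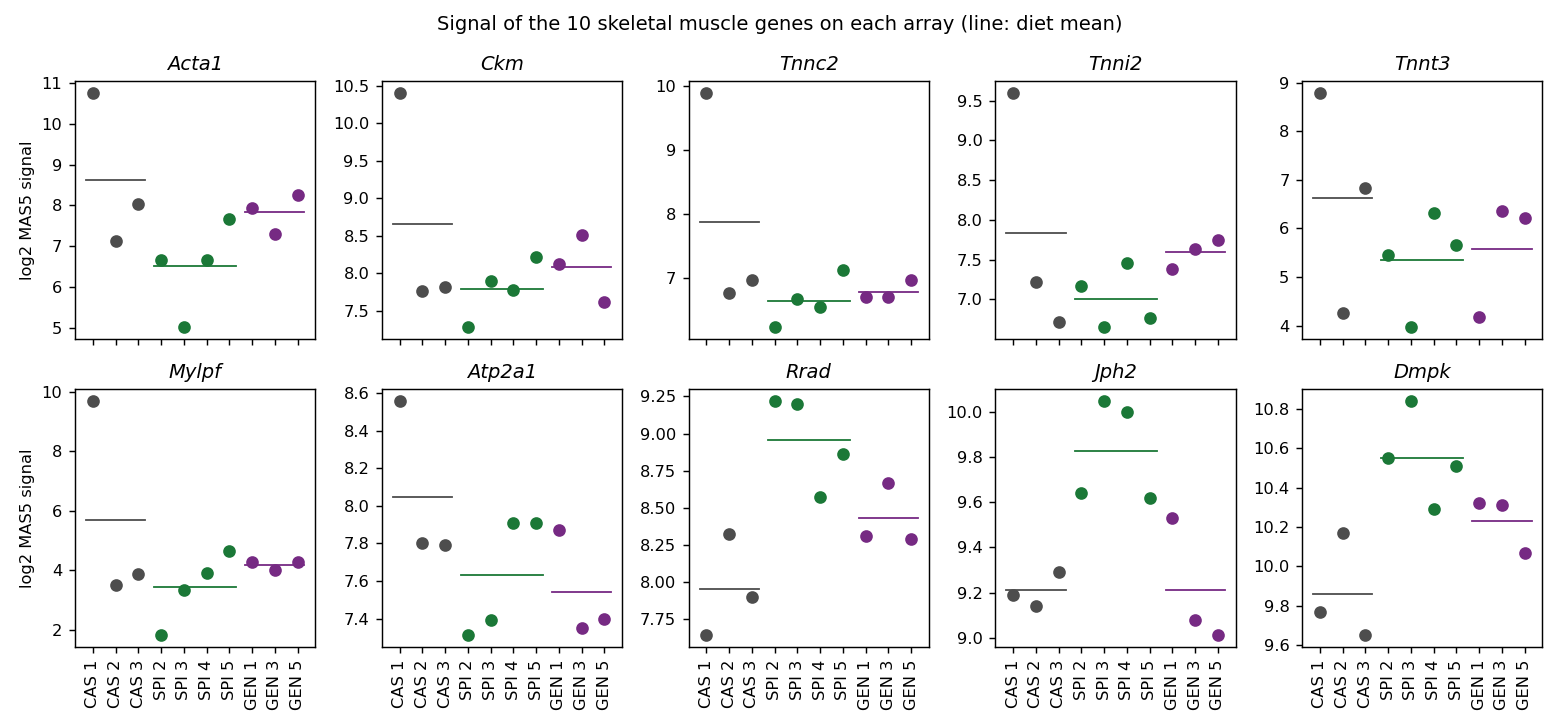
Log2 MAS5 signal of the 10 genes, with 1 panel per gene and its own axis range, 1 point per array and a line at each diet's mean. CAS 1 is the highest point for the 7 fast fibre genes and not for Rrad, Jph2 or Dmpk.

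CAS 1 was the highest array for 7 of the 10 genes, against 9.57% of all 15866 probe sets and 8.92% of the 9520 tested. It was over the other arrays' median by more than 1 log2 for 6 of the 10, against 4.39% of all probe sets and 1.27% of those tested. The same 6 were over it by more than 2 log2, against 0.845% and 0.105%. For Acta1 and Tnni2 the medians of the other 9 arrays were 157 and 149, below 162. CAS 1 thus raised the means by which these 2 genes passed the filter, which limits the comparison with the probe sets tested. CAS 1 was the lowest array for 1 of the 10, Rrad, against 9.79% of all probe sets and 10.5% of those tested. The 10 genes were chosen with earlier results of these data known, so these shares are a description. The mean log2 signal of the 7 fast fibre genes was 9.68 on CAS 1 and 5.85 to 6.93 on the other 9 arrays, where the lowest was SPI 3 and the highest GEN 5. CAS 2 and CAS 3 had means of 6.35 and 6.86, within the range of the SPI and GEN arrays. SPI 2 was the lowest array for 4 of the 7 genes and SPI 3 for the other 3. CAS 1 did not stand apart in the quality measures of the arrays: its median signal was 240.3, against 222.8 to 256.7 over all arrays, and its β-actin 3′ to 5′ ratio was 5.04, against 2.83 to 7.77.

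The agreement among the fast fibre genes came largely from CAS 1. Over the 10 arrays their 21 pairwise correlations of log2 signal had a median of 0.80 and ran from 0.54 to 0.97. Without CAS 1 the median over 9 arrays was 0.24, with a range of -0.22 to 0.83, and 18 of the 21 stayed above 0. The points share libraries and array scaling, and these correlations are given as a description. Among all 9654 probe sets with a CAS 1 signal of at least 162, 6 of these genes were among the 20 with the largest excess on CAS 1. The CAS 1 signal both admitted and ranked these probe sets, so the ranks are only a description. Mylpf, Tnnc2 and Tnnt3 lay below 162 on every other array. Mylpf was the first, Acta1 the third, Tnnc2 the fourth and Tnnt3 the fifth. The second was Pvalb, parvalbumin, the calcium buffer of fast fibres, and the list also held genes of no muscle list, such as Nos2, Il10 and Akr1c3, which were chosen for mention after their values were seen.

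Beside the 10 genes, 112 genes of 5 muscle lists were on the array, of which 41 were bright enough to be tested. CAS 1 was the highest array for 26 of the 112 (23.2%) and exceeded the median of the others by more than 1 log2 for 17 (15.2%), against 9.57% and 4.39% of all probe sets. Their median distance was -0.02 log2, against -0.02 over all probe sets, so the middle of these lists was not raised on CAS 1. Most of the 112 were below the filter on dim probe sets, where a rise may be missed. The lists also hold slow, cardiac and widely used genes. The list genes named in the next paragraphs as over 1 log2 on CAS 1 were chosen by that excess.

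Of 27 filament genes that fast fibres use or share with other fibres, 10 were more than 1 log2 over the others' median on CAS 1. Only Myl1 and Myoz1 of these passed the filter on dim probe sets. Myh8 and Actn2 read only 19 and 56 on CAS 1. Klhl41 and Myom2 read 82 and 126 there, close to 76 and 116 on the next array, and Tcap read 108, below 156 on SPI 5. Myl1, the fast essential light chain, read 1688 on CAS 1 and 324 to 936 on the other arrays. Actn3, the α-actinin found in fast fibres, read 595 against 20 to 186, and Myoz1, which ties α-actinin to calcineurin at the Z disc, read 402 against 139 to 215. Myh4, the fastest of the limb myosins, was 2.03 log2 over the median but dim on every array, at 102 on CAS 1. Not every filament gene followed: the 5 probe sets of Myh1, another fast myosin, lay between -0.17 and 0.32 log2 of the median, and the 4 probe sets of Ldb3, a Z disc protein, lay between -0.90 and 0.64 log2 of it. The brightest of these was lowest on CAS 1, at 144 against 166 to 396, and the dimmest was highest there, at 51 against 25 to 46. Xirp1, an actin-binding protein of the cell junctions of muscle, read 568 on CAS 1 and 191 to 801 elsewhere.

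Of 19 energy supply genes, 4 were more than 1 log2 over the median on CAS 1, and all 4 were below 200 in signal. Eno3, the muscle enolase, read 177 against 8 to 67, and Pgam2, the muscle phosphoglycerate mutase, 72 against 5 to 9. Cox6a2, a muscle subunit of cytochrome oxidase, read 79 against 6 to 42, and Mb, myoglobin, 58 against 12 to 45. Fabp3, the fatty acid binding protein of heart and muscle, which the mammary epithelium also makes, did not follow, at 769 on CAS 1 and 296 to 2503 on the others. Ampd1, an enzyme of the purine cycle, lay at 0.06 log2 of the median, and the 3 probe sets of Pygm, the glycogen phosphorylase, between -0.56 and 0.47.

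Of 25 genes of calcium handling and excitation, 1 exceeded 1 log2, and it was Pvalb, at 356 on CAS 1 and 6 to 20 on the other arrays. Casq1, the fast fibre store protein for calcium, read 143 on CAS 1, level with 141 on the next array, and 0.49 log2 over the median of the other arrays. Ryr1, the release channel, read 17 there and Cacna1s, its voltage sensor, 11, both too dim to place. Among the 22 myogenic regulators and growth control genes, 1 exceeded 1 log2, Cav3, by 1.04. Myog, a factor that drives the fusion of myoblasts, read 202 against 136 to 230, and Myod1 read 11 against 3 to 43. Des, the intermediate filament of all muscle types, read 1886 on CAS 1 and 1660 to 3550 on the others.

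**Figure D2:**
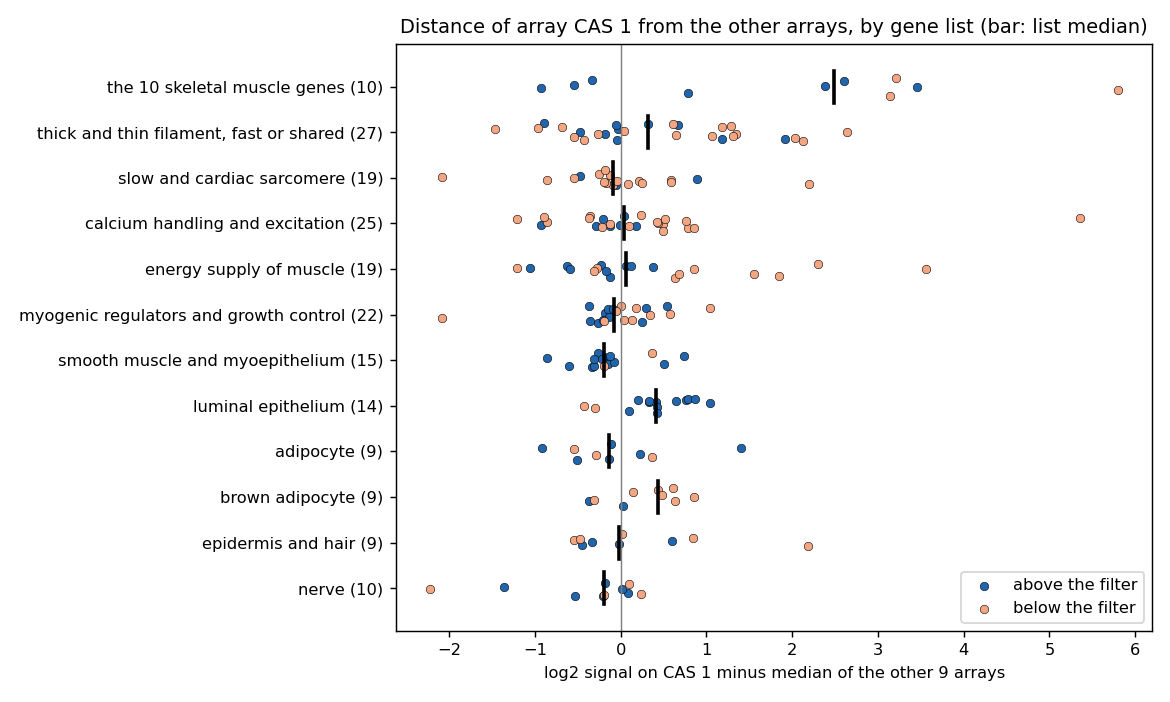
Distance of CAS 1 from the median of the other 9 arrays (log2) for the 10 genes and for each gene of 11 lists, with 1 point per gene, coloured by whether it passed the filter on dim probe sets, and a bar at the list median. The 10 genes have a median of 2.49 log2, and the medians of the 11 lists lie between -0.19 (smooth muscle and nerve) and 0.44 (brown adipocyte).

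In several gene families the excess on CAS 1 differed between the fast form, or the skeletal form for Acta1, and its relative in slow, cardiac or smooth muscle. Fast Tnnc2 was 3.21 log2 over the median and Tnnc1, the slow and cardiac form, was -0.17. Fast Tnni2 was 2.38 over it, and slow Tnni1 was -0.48 on its brighter probe set, where CAS 1 was lowest of the 10 arrays, and -0.36 on the other, where it was the seventh. Tnnt3 and slow Tnnt1 were at 3.14 and 0.21, and Mylpf and Myl2, the slow and cardiac regulatory light chain, at 5.80 and 0.08. Acta1 was at 3.46, and Acta2, the smooth muscle actin of myoepithelium and vessels, was at -0.19. Atp2a1 was at 0.78 and Atp2a2, the pump of slow, cardiac and most other cells, at -0.01 on its brightest of 4 probe sets and -0.30 to 0.09 on the others. A pair that did not split this way was Actn3 and Actn2, at 2.64 and 2.13. Actn2 is listed here with the filament genes that fast fibres use or share, and it was dim, at 56 on CAS 1 and 8 to 26 elsewhere. Of the 19 slow and cardiac sarcomere genes on the array, 1 was more than 1 log2 over the median on CAS 1, at 2.19. That gene fell below the filter on dim probe sets, so slow and cardiac genes were not all level on CAS 1 only by a dim gene. A different gene, Mybpc3, had the widest range of the 3 tested genes of that list, 3.62 log2. It was highest on CAS 1 and lowest on CAS 2. The mean log2 signal of the 3 tested genes was 9.70 on CAS 1, 9.81 on GEN 3 and 8.80 on CAS 2, so it did not set CAS 1 apart. Most of these distances involve dim probe sets. Tnnt1 read 8 on CAS 1 and 4 to 56 elsewhere, and Myl2 27 and 22 to 33. Myh7, the slow myosin, read 12 and 5 to 10, and Tnnc1 82 and 65 to 122. A small amount of slow fibre RNA could not be measured with these 4, and the sizes of their splits from the fast forms cannot be ranked.

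**Figure D3:**
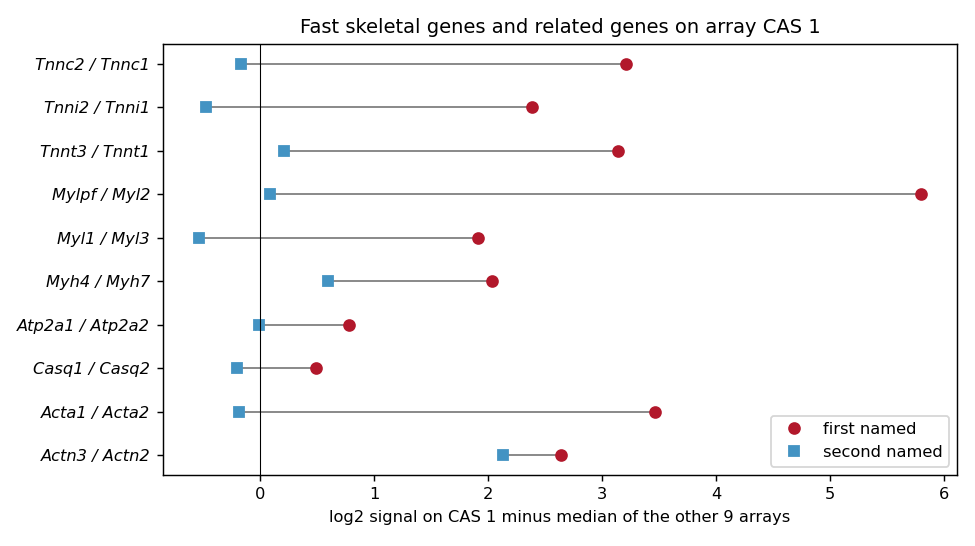
Distance of CAS 1 from the median of the other 9 arrays (log2) for 10 pairs of related genes, the first named as a circle and the second as a square. The first named gene lies to the right in each pair, for example Acta1 at 3.46 and Acta2 at -0.19, and pairs with probe sets below 162, such as Mylpf and Myl2, cannot be ranked by their gap.

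Markers of other cells were measured beside the muscle genes. The summed signal of the 10 muscle genes was 8134 on CAS 1 and 2729 to 4151 on the other arrays. Sums of the wider muscle lists did not set CAS 1 apart, at 17378 for the filament list against 13980 to 18335 and 15014 for the energy list against 11066 to 16437. Much of the filament sum was Tpm1 and Tpm2, at 4808 and 5655 on CAS 1, so it cannot show whether dimmer filament genes were raised. That Tpm1 probe set was lowest on CAS 1. Dimmer ones of Tpm1 read 1120 against 374 to 604 and 572 against 115 to 397, while others were not highest there. The summed signal of 15 smooth muscle and myoepithelial genes was 31675 on CAS 1 and 30436 to 46846 on the other arrays. That of 14 luminal epithelial genes was 54651 on CAS 1, the second highest of the 10, and 16827 to 67271 on the others. Krt8, a luminal keratin, read 4418 on CAS 1 and 1409 to 5260 on the others, and Wap, a milk protein gene, 1489 and 574 to 5212, so markers of the labelled epithelium were present on every array. That of 9 adipocyte genes was 19891 on CAS 1, the lowest of the 10, and 20665 to 24029 on the others. None of the 15 smooth muscle and myoepithelial genes was more than 1 log2 over the median on CAS 1, and 1 of the luminal genes was, Cldn4 at 1.04. Of the 9 adipocyte genes 1 was, Cfd, or adipsin, at 1.40, with 2797 on CAS 1 and 541 to 2257 on the others. Of 9 epidermal genes 2 were highest on CAS 1 and 1 was over 1 log2, Ivl, or involucrin, at 2.18 but dim at 32 against 3 to 29. None of 10 nerve genes was. Among 9 genes of brown fat, which shares several muscle enzymes, none was over 1 log2, and Ucp1, its defining uncoupling protein, read 149 on CAS 1 and 28 to 255 elsewhere. The part of any of these in the level of the muscle genes was not tested.

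The 10 genes outside all lists whose log2 signal correlated most with the mean of the 7 fast fibre genes over the 10 arrays were Mrfap1, Col5a2, Htra3, Metrnl, Vcan, Sema3c, Ccdc80, Lpar1, Fndc1 and Mfap2. Their correlations ran from 0.975 for Mrfap1 to 0.914 for Mfap2, and without CAS 1 from 0.88 for Col5a2 to 0.66 for Fndc1. Fndc1, a fibronectin domain protein, read 2502 on CAS 1 and 294 to 1012 on the other arrays, and Sema3c, a secreted guidance cue, read 1638 against 252 to 604. Col5a2, a fibrillar collagen chain, and Mrfap1 were only 0.87 and 0.43 log2 over the median on CAS 1. CAS 1 was high for some genes that are not known for muscle fibres as well. All 10 were chosen by correlation with a mean that was highest on CAS 1, which favoured such genes, so their excess there is only a description.

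The diets were compared with limma in 1 fit of all 10 arrays, and 0 of the 9520 probe sets tested passed a Benjamini-Hochberg adjusted p of 0.05 in any comparison (0.0% called). SPI against CAS had a smallest adjusted p of 0.170. Those of the other comparisons were 0.0642 (GEN against CAS) and 0.132 (SPI against GEN). At an unadjusted p under 0.05, 459 probe sets (4.82%) differed between SPI and CAS, 561 (5.89%) between GEN and CAS and 757 (7.95%) between SPI and GEN. None of the 10 muscle genes passed the adjusted threshold in any comparison. At an unadjusted limma p under 0.05, Rrad, Jph2 and Dmpk were higher in SPI than in CAS (3 genes, against 1.53% of probe sets tested) and Acta1 was lower (1 gene, against 3.29%). CAS 1 raised the mean by which Acta1 passed the filter, so its count cannot be set squarely against that share. The unadjusted limma p of Acta1 was 0.0123 with all 10 arrays and 0.0883 without CAS 1. Rrad and Jph2 were higher in SPI than in GEN (2 genes, against 3.70%) and 0 were lower (against 4.25%). In GEN against CAS 0 of the 10 were higher or lower (against 2.70% and 3.19%). The comparisons with CAS share the CAS arrays, and those of SPI share the SPI arrays.

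CAS had the highest mean of all 7 fast fibre genes, with a spread as large as the mean for most. Acta1 averaged 710 ± 886 in CAS (SD, n = 3), 109 ± 70.6 in SPI (SD, n = 4) and 237 ± 75.6 in GEN (SD, n = 3). In limma Acta1 was -2.14 ± 0.73 log2 (SE) in SPI against CAS, with an adjusted p of 0.941. Without CAS 1 the CAS arrays averaged 199 ± 84.6 (SD, n = 2), and the difference was -1.07 log2. Mylpf averaged 286 ± 472 in CAS, 13.4 ± 9.12 in SPI and 18.3 ± 1.85 in GEN. Its difference from CAS was -2.27 ± 1.24 log2 in SPI and -1.51 ± 1.32 in GEN, and without CAS 1 it was -0.27 and 0.49. Mylpf, Tnnc2 and Tnnt3 were read from the fit without the filter on dim probe sets.

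The other fast fibre genes depended on CAS 1 in the same manner. Ckm averaged 602 ± 659 in CAS, 228 ± 59.3 in SPI and 281 ± 84.1 in GEN. SPI against CAS was -0.87 ± 0.52 log2 for Ckm with CAS 1 and 0.00 without it, and GEN against CAS was -0.58 ± 0.55 and 0.30. Tnni2 averaged 344 ± 376, 132 ± 34.7 and 194 ± 24.8 in CAS, SPI and GEN. GEN against CAS went from -0.25 to 0.62 log2 for Tnni2 when CAS 1 was left out, and SPI against CAS from -0.83 to 0.05. Tnnc2 averaged 397 ± 486 in CAS, 102 ± 27.1 in SPI and 110 ± 12 in GEN, and SPI against CAS went from -1.24 to -0.22 log2. Tnnt3 went from -1.28 to -0.20 and Atp2a1 from -0.42 to -0.17 in that comparison. Atp2a1, the least raised on CAS 1, averaged 274 ± 90.3 in CAS, 202 ± 44.9 in SPI and 189 ± 38.9 in GEN.

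Over the 10 genes the median log2 difference was -0.85 for SPI against CAS. It was -0.54 for GEN against CAS, and SPI minus GEN had a median of -0.19. Over all probe sets tested the medians were -0.01, -0.01 and 0.00. Without CAS 1 the median of the 10 genes was -0.08 for SPI against CAS and 0.28 for GEN against CAS. CAS 1 enters SPI against GEN only through the shared spread, and there Acta1 was lower in SPI by 1.34 log2 with an SE of 0.73 and a limma adjusted p of 0.653. Within SPI, Acta1 read 32.3 on SPI 3 and 100 to 204 on the other arrays.

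**Figure D4:**
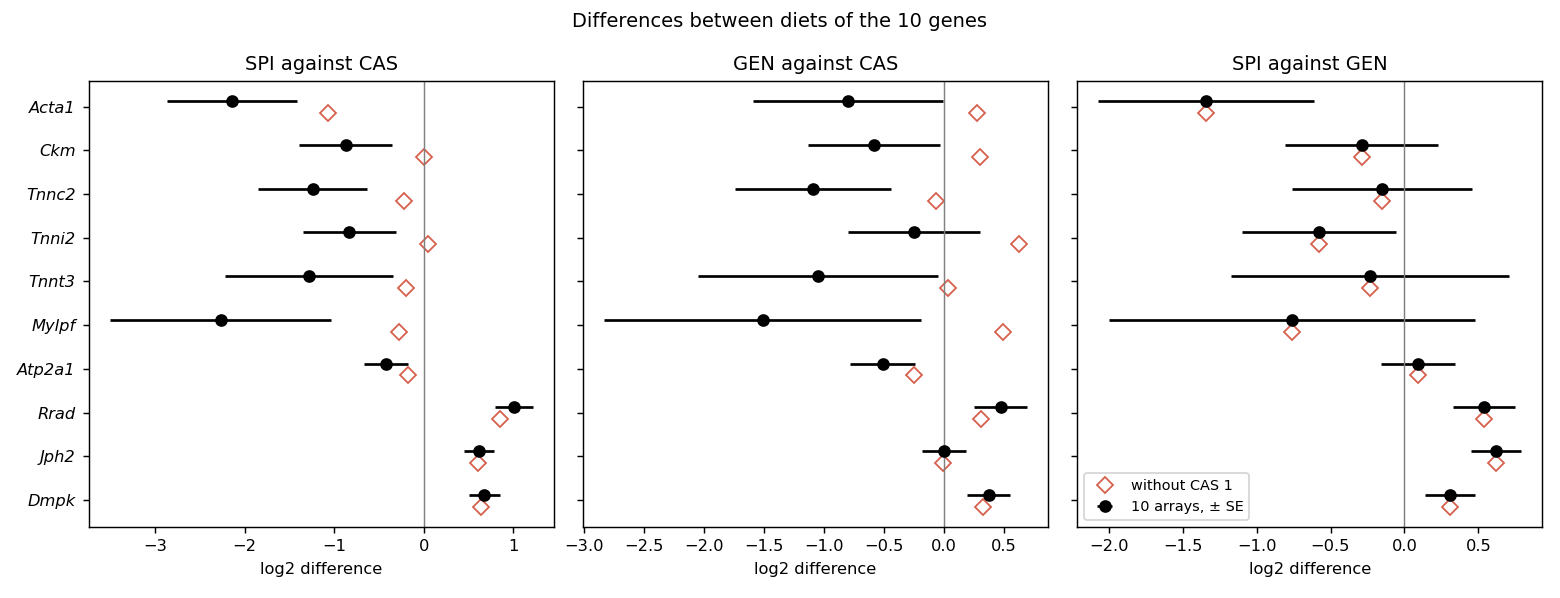
Log2 difference of the 10 genes in the 3 diet comparisons, with filled points and SE bars for the limma fit of 10 arrays, open diamonds for the value without CAS 1, and an axis range of its own per panel. The negative values of the fast fibre genes against CAS move toward or past 0 without CAS 1, while Rrad, Jph2 and Dmpk stay above 0 in SPI against CAS.

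Rrad, Jph2 and Dmpk were higher in all 4 SPI arrays than in all 3 CAS arrays. Rrad averaged 507 ± 104 in SPI (SD, n = 4), 253 ± 60.7 in CAS (SD, n = 3) and 346 ± 52.4 in GEN (SD, n = 3). Its difference between SPI and CAS was 1.01 ± 0.21 log2, with a limma p of 0.000358 and an adjusted p of 0.568. Jph2 averaged 917 ± 146 in SPI, 591 ± 29.7 in CAS and 600 ± 122 in GEN. It was 0.62 ± 0.17 log2 over CAS (limma adjusted p 0.636) and 0.62 ± 0.17 over GEN (limma adjusted p 0.461), with no overlap of arrays in either. Dmpk averaged 1510 ± 242 in SPI, 942 ± 187 in CAS and 1210 ± 116 in GEN, and SPI against CAS was 0.68 ± 0.17 log2 with a limma adjusted p of 0.582. These 3 of the 10 genes were higher in SPI without overlap, against 1.78% of the probe sets tested, and 0 of the 10 were lower without overlap, against 2.83%. Between SPI and GEN, 1 of the 10 was higher without overlap (Jph2, against 4.13%) and 0 were lower (against 4.37%). Between GEN and CAS every one of the 10 overlapped, against 5.70% of probe sets that were higher without overlap and 5.41% that were lower. None of the 3 passed the adjusted threshold, so they are not counted as differences. The shares are a description, as the 10 genes were chosen with earlier results of these data known.

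GEN was close to CAS for Jph2, at 0.00 ± 0.18 log2, and between the other diets for Rrad and Dmpk, at 0.47 ± 0.22 and 0.37 ± 0.18 over CAS. Without CAS 1 the SPI against CAS values were 0.85 log2 for Rrad, 0.61 for Jph2 and 0.64 for Dmpk. With the mean of the 7 fast fibre genes as a covariate they were 0.75, 0.58 and 0.56. The adjusted p ran from 0.15 to 0.997 for Rrad over all alternatives, from 0.475 to 1.0 for Jph2 and from 0.16 to 1.0 for Dmpk.

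**Figure D5:**
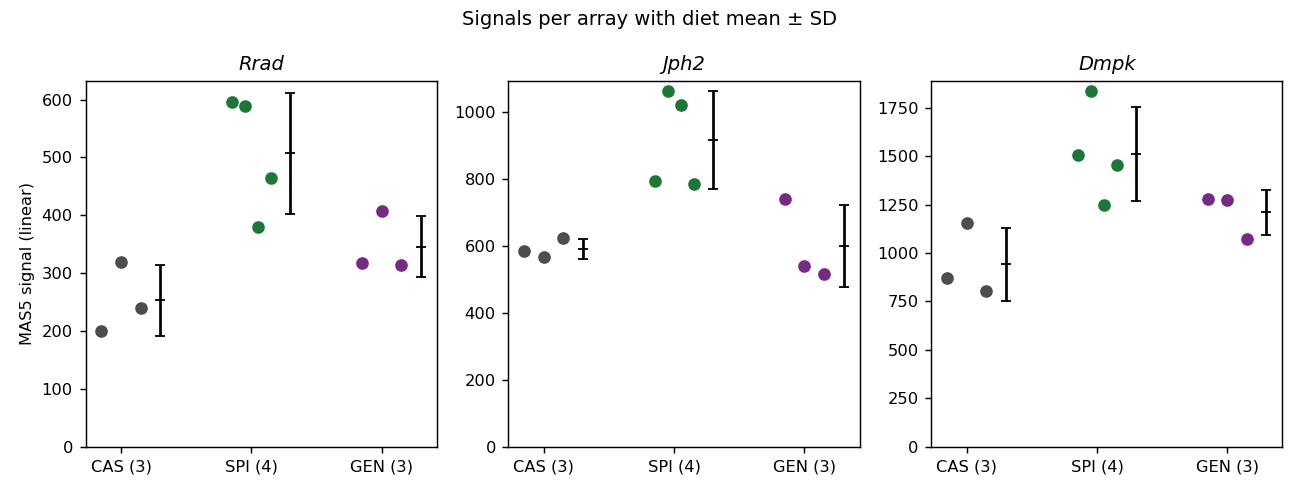
MAS5 signal of Rrad, Jph2 and Dmpk on each array (linear axis from 0), with the mean and SD of each diet beside the points. The SPI arrays lie above the CAS arrays in all 3 genes, from 380 for Rrad, 785 for Jph2 and 1248 for Dmpk upward.

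Smooth muscle genes were also measured beside these 3. The summed signal of the 15 smooth muscle and myoepithelial genes was 34264 to 46846 on the SPI arrays, 30436 to 38071 on the CAS arrays and 31861 to 40328 on the GEN arrays. SPI 3 was highest for that sum and for Jph2 and Dmpk, while Rrad was highest on SPI 2. The sums on SPI 2, SPI 4 and SPI 5 were 37078, 38420 and 34264, within the range of the GEN arrays. Of the 13 tested genes of this list, 10 had a difference above 0 between SPI and CAS, with a median of 0.16 log2, against -0.01 over all probe sets tested. Of these 13, 0 passed the adjusted threshold and 2 had an unadjusted limma p under 0.05, against 4.82% of all probe sets tested. They were Mylk, the kinase that starts smooth muscle contraction, at 0.34 ± 0.14, and Myl9, its light chain substrate, at 0.31 ± 0.14, both named for that p. From the muscle lists, Des was at 0.47 ± 0.17 log2 between SPI and CAS, with a limma adjusted p of 0.979. Pln, phospholamban, the brake of the calcium pump in heart and smooth muscle, was at 0.86 ± 0.32 on its brighter probe set and 0.27 ± 0.23 on the other, with a limma adjusted p of 0.987 for both. The tested genes of the lists that hold Des and Pln had median differences of only 0.10 and 0.06 log2. The part of smooth muscle in the levels of Rrad, Jph2 and Dmpk was not tested.

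In the 5 muscle lists 0 of 41 tested genes passed the adjusted threshold in any comparison. Fabp3 was 2.04 ± 0.41 log2 higher in GEN than in CAS, with no overlap and a limma adjusted p of 0.462. In SPI it was 1.54 ± 0.38 higher than in CAS, with a limma adjusted p of 0.582. Chrna1, the α subunit of the muscle acetylcholine receptor, read 118, 115, 152 and 119 on the SPI arrays, 207, 218 and 183 on the CAS arrays and 234, 211 and 217 on the GEN arrays. It was lower in SPI than in CAS with no overlap, at -0.69 ± 0.19 log2 and a limma adjusted p of 0.693. Against GEN it was -0.82 ± 0.19, with a limma adjusted p of 0.402. Sgca, a sarcoglycan of the muscle membrane, was 0.46 ± 0.17 log2 higher in SPI than in GEN, with a limma adjusted p of 0.563.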

How the data were processed

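RNA of 10 pools of rat mammary gland was measured on Affymetrix RAE230 arrays. The authors deposited linear intensity values, 1 per probe set and array. These are MAS5 signals, per the submitters' processing notes, of a version those notes do not name. Each array is scaled as a whole, so total RNA is not compared, and the table holds no presence calls. Gene symbols came from the platform annotation. Of 15923 probe sets, 57 controls were left out. Values under 1 were set to 1 before log2. The dimmest 40% by mean log2 signal were left out of the test, which left 9520.

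Diets were taken from the sample titles and compared with limma 3.58.1 in R 4.3.3 (lmFit, eBayes with an intensity trend), all 10 arrays in 1 fit with 7 residual degrees of freedom, and Benjamini-Hochberg adjustment over 9520 probe sets. Genes below the filter were read from the fit on all 15866. The fit was checked on simulated data. The number of arrays limits the precision. Single arrays were compared with the median of the other arrays, with no test.

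The 10 genes and the 11 lists were chosen with earlier results of these data known. Named were all 10 genes, the list genes with the widest range over the arrays, the 10 genes closest in pattern to the fast fibre genes, and genes said in the text to be chosen by their values. Alternatives changed the filter, floor, scaling, variance trend, covariates, arrays in the fit and each array left out. Motifs were counted on both strands of RefSeq promoters.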

Additional observations from a re-analysis of the deposited data

How the results depend on the processing

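Leaving out CAS 1 changed the sign, or brought to 0, of 2 of the 7 fast fibre differences between SPI and CAS and 5 of the 7 between GEN and CAS. With each array left out in turn, the log2 difference between SPI and CAS ran from -1.32 to 0.00 for Ckm and from -1.40 to 0.05 for Tnni2. Between GEN and CAS it ran from -1.55 to 0.27 for Acta1, from -1.03 to 0.30 for Ckm, from -0.82 to 0.62 for Tnni2, from -2.23 to 0.03 for Tnnt3 and from -2.60 to 0.49 for Mylpf. The high end of each came without CAS 1. The median of the 10 genes ran from -1.24 to -0.08 (SPI against CAS), from -0.88 to 0.28 (GEN against CAS) and from -0.32 to 0.00 (SPI against GEN), and without CAS 1 it was -0.08 and 0.28 in the first 2. Jph2 in GEN against CAS, at 0.00, ran from -0.16 to 0.10 and was -0.02 with the fast fibre level as a covariate. In SPI against GEN, Tnnt3 ran from -0.94 to 0.22 and Atp2a1 from -0.01 to 0.25. The cause of these changes was not tested.

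Of 564 values of the 30 gene differences under the alternatives, 544 kept their direction and their side of the threshold and 20 changed sign. None passed the adjusted threshold in limma, and the smallest adjusted p was 0.15. Probe sets called over the whole array ran from 0 to 2 for SPI against CAS with an array left out (RT1-CE16 and RT1-Bb without SPI 2), from 0 to 1 for GEN against CAS (Apod without CAS 1) and from 0 to 1 for SPI against GEN (Il17b without CAS 2, a probe set with no symbol without CAS 3, RT1-CE16 without SPI 2, Rpl37a without GEN 5). The fit of only SPI and GEN called 2, Il17b and a probe set with no symbol. Every gene followed had 1 probe set, so no other could stand for it.

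Arrays of different diets share replicate numbers. Deviations of the 6 same-numbered pairs correlated at -0.183 to 0.155, and 0 of 9 arrays correlated best with their own number, so the numbers were not taken as pairs. With the replicate number as a block, limma called 0 probe sets in each comparison (270, 416 and 286 at an unadjusted p under 0.05 for SPI against CAS, GEN against CAS and SPI against GEN). With the block SPI against GEN was 0.35 log2 for Ckm, 0.59 for Tnnc2 and 0.63 for Mylpf, and 0.35 for the median of the 10 genes. Tnnc2, Tnnt3, Mylpf and Pvalb lay below a signal of 162 outside CAS 1, which limits what their fold values can show. The medians of Acta1 and Tnni2 over the other 9 arrays, 157 and 149, were also below 162.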
